A study of Mus musculus with 6 samples.

Results

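The pentose phosphate and antioxidant genes were a list of 33 named genes of known function, proposed with earlier results of these data in view, among the 28773 genes listed for each sample. All 33 were found by symbol. RNA had been sequenced from CD8+ T cells that an isolation kit took from mouse spleens on day 35. The 3 MWA+PBS samples came from mice whose tumor had received microwave ablation (MWA) and then injections of the PBS vehicle. The 3 MWA+2DG samples came from mice given the same ablation and then 2-deoxy-D-glucose (2DG), a glucose analogue that blocks glycolysis. Ablation was therefore shared by both groups, and no group without ablation or with 2DG alone was analysed here. The 2DG injections had ended before the cells were taken, so the values describe cells after treatment. The study used female mice of more than 1 strain and more than 1 implanted tumor line, and the labels give neither strain, tumor line nor age for these 6 samples. The labels also do not say whether a sample was 1 mouse, so p-values measure the spread between these samples.

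The pentose phosphate pathway branches from glycolysis at glucose 6-phosphate. Its oxidative arm makes NADPH, and its non-oxidative arm exchanges sugar phosphates with glycolysis and supplies ribose for nucleotides. NADPH is the electron donor with which glutathione reductase and the thioredoxin reductases keep glutathione and thioredoxin reduced. These in turn feed the glutathione peroxidases and peroxiredoxins, which remove peroxides, and the glutaredoxins, which reduce protein disulfides. The transcription factor NRF2 (Nfe2l2), which its repressor KEAP1 holds for degradation, binds antioxidant response elements near many of these genes.

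Because many of the genes are NRF2 targets, their promoters were searched for the core of that element, TGACNNNGC, on both strands. The promoters were those of RefSeq (GRCm38.p6), 250 bases before to 50 after each gene start, and 30 of the 33 genes had an entry. Gclc, Gsr and Prdx6 had none. A match was present in 8 of the 30 genes (26.7%), against 17% of the tested genes that had a promoter and 14% of all 27025 genes in the table. Counted by promoter, it was in 8 of the 37 promoters of these genes (21.6%) and in 12.4% of all 32851. It was present in 4 of the 14 genes called lower in MWA+2DG that had a promoter (28.6%, against 19.3% of all tested genes called lower that had a promoter) and in 3 of the 13 that were not called (23.1%). In Srxn1 and Pgd the match lay after the start. The other 6 are printed to show how the core differs among genes that were called lower (Prdx1, Gclm, Txnrd1, Sod1) and genes that were not called (Nfe2l2, G6pdx). Each window is 30 bases read 5′ to 3′ on the strand that spells the core, which is in capitals.
Prdx1 (chr4:116685456-116685485, minus strand): cctacgggggaTGACTCAGCgctttccctg
Gclm (chr3:122245413-122245442, minus strand): ctcgtgagagtTGACGGTGCgcccgggagc
Txnrd1 (chr10:82859104-82859133, minus strand): ccgtgtcagaaTGACAAAGCaaaaatccag
Sod1 (chr16:90220696-90220725, minus strand): aggcctgagtcTGACCACGCccaccttggc
Nfe2l2 (chr2:75704884-75704913, minus strand): tcagcccaccTGACTCCGCcatgccccgga
G6pdx (chrX:74428918-74428947, plus strand): ggcgtgtgcttTGACTGAGCtgacccgcct
The core in Prdx1 began 133 bases before the start and also spelled the AP-1 motif TGACTCA, the only 1 of the 8 matches to do so. AP-1 motifs (TGACTCA or TGAGTCA) were present in 5.2% of all promoters. A match describes letters in this window and does not show binding.

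Values are FPKM, fragments scaled by transcript length and library total, so levels of different genes can be set side by side. FPKM totals per sample ran from 291803 to 313257 and the read depth is unknown. T lineage genes were present in every sample, with Cd8a between 225.8 and 377 FPKM, but so were genes of other cells. The sum of 13 macrophage markers lay between 674 and 722 FPKM in the MWA+PBS samples and between 103 and 110 in the others. The 13 erythroid markers that were found summed to 299 to 355 and 68.1 to 86.1, and 14 proliferation genes to 210 to 229 and 143 to 150. In the other direction, with MWA+PBS again given first, 12 neutrophil markers summed to 67.0 to 91.9 and 1596 to 1777, 10 B cell markers to 11.1 to 12.3 and 60.3 to 66.2, and 16 T lineage genes to 1601 to 1688 and 2237 to 2398. No macrophage, erythroid, neutrophil or T lineage marker that was found was at 0 in any sample. MWA+PBS replicates 1 and 2 stood apart by kidney tubule transcripts, 10 of which summed to 40.7 and 77.0 FPKM there, 0.01 in MWA+PBS replicate 3 and at most 0.03 in MWA+2DG. In bulk RNA, fewer cells of a type and less RNA per cell cannot be told apart, and the part of these other cells in the results below was not tested.

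Among the tested pentose phosphate and antioxidant genes, far more were lower than higher in MWA+2DG, most clearly the peroxide-removing enzymes Prdx4, Gpx1 and Prdx2 and the glutathione reductase Gsr. Genes were tested with limma on log2(FPKM + 1) where the mean FPKM over the 6 samples was at least 1, and were called at a Benjamini-Hochberg adjusted p under 0.05. Of the 33 genes, 31 passed the filter, while Nqo1 and Srxn1 were too low. Of the 31, 16 were called lower in MWA+2DG (51.6%), where the same rule called 17.1% of all 12444 tested genes lower. Since the list was proposed with earlier results known, the 2 shares are a description. Only Glrx was called higher (3.23%), against 22.3% of all tested genes, and 14 were not called. In both directions together, 17 were called (54.8%), against 39.4% of all tested genes. The log2 fold change was below 0 in 26 of the 31, with a median of -0.15 where the median over all tested genes was 0.05. Among the 31, the 2 groups did not overlap with MWA+2DG lower in 17 genes (54.8%, against 21.9% of all tested genes). They did not overlap with MWA+2DG higher in 3 (9.68%, against 30.2%). In either direction, 20 of the 31 were apart, where 52.1% of all tested genes were. Under the rule of the study's methods, P under 0.05 and a log2 fold change beyond 0.25, 13 of the 31 passed (41.9%, against 38.2% of all tested genes), 12 of them lower (38.7%, against 16.6%). The fold changes ran from -0.98 in Prdx4 to 0.28 in Glrx, and 4 genes were called with a change below -0.5.

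**Figure D1:**
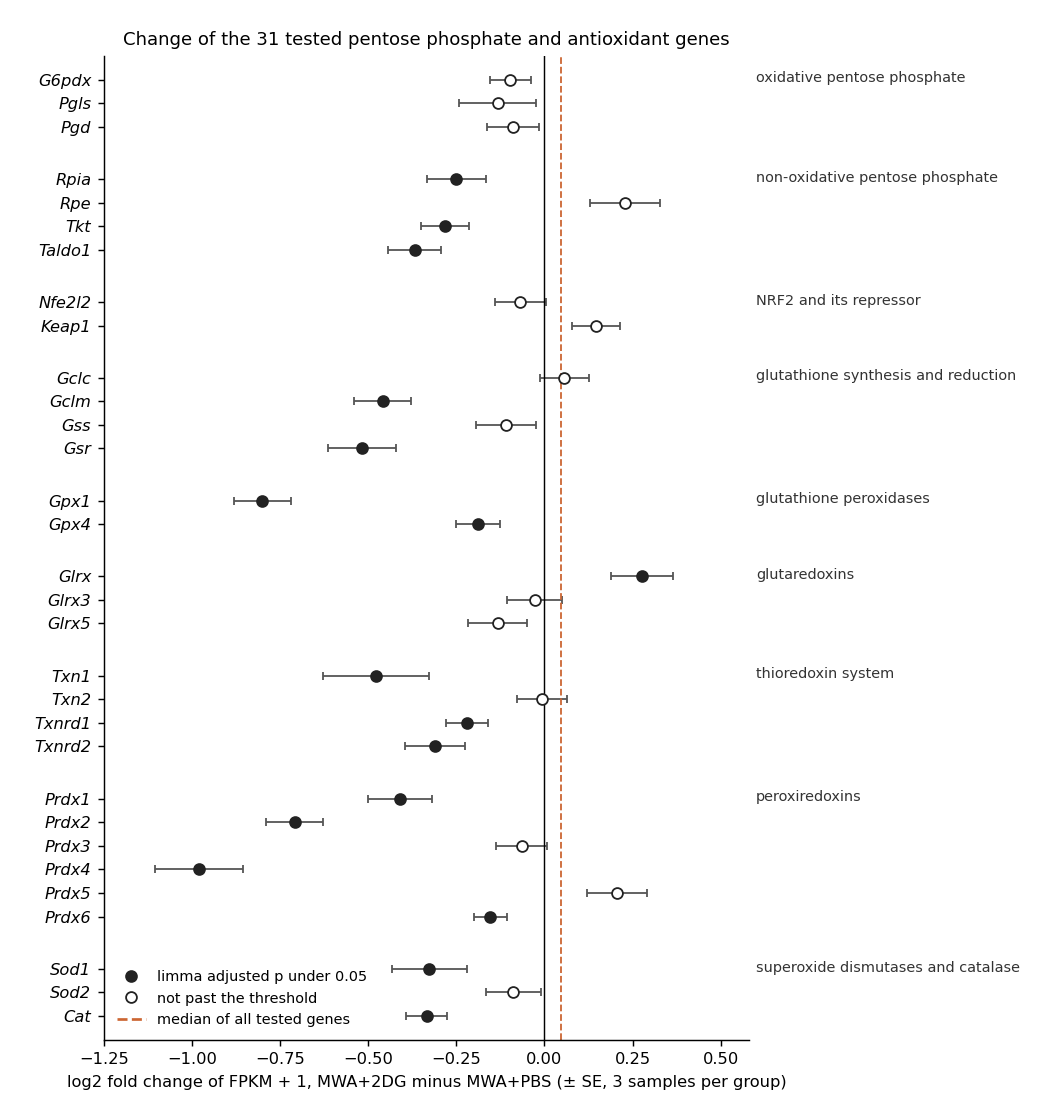
Log2 fold change of FPKM + 1 (x axis, MWA+2DG minus MWA+PBS, with its SE, 3 samples per group) of the 31 tested genes, ordered by role. Filled points passed a limma adjusted p of 0.05, and the dashed line is the median of all tested genes. Of the filled points, 16 lie to the left of 0 and 1, Glrx, to the right, and under scaling to T lineage genes Glrx also falls below 0.

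These counts depended on which samples and which scaling were used. Leaving out 1 sample at a time gave between 8 and 13 called genes, with 8 without MWA+PBS replicate 1 and 10, 11 and 9 without MWA+2DG replicates 4, 5 and 6. In either direction, the share of the 31 was then below that of all tested genes without MWA+PBS replicate 1 (25.8% against 29.8%) and without MWA+2DG replicate 6 (29.0% against 30.0%), and in the other 4 fits it was above it, at 32.3% to 41.9% against 29.8% to 41.7%. In the lower direction, it ran from 25.8% to 38.7% over the 6 fits, where all tested genes gave 13.1% to 17.8%. The 8 genes called with all samples and in each of those 6 fits were Taldo1, Gclm, Gsr, Gpx1, Prdx1, Prdx2, Prdx4 and Cat, all lower in MWA+2DG. They made up 25.8% of the 31, and the same requirement was met in the lower direction by 12.2% of all tested genes. In either direction, 26.0% of all tested genes met it. Without both samples that carried kidney transcripts, 7 genes were called (22.6%), below the 28.2% of all tested genes, and 5 of the 7 were lower (16.1%, against 11.7%). That fit set 1 MWA+PBS sample against 3 and assumed that the lone sample varied like the others. In it, Gpx1, Prdx2, Prdx4, Gsr and Cat were still lower, Rpe and Prdx5 were now called higher, and all 17 genes called with all samples kept their sign. Scaling each sample to its T lineage genes instead of its total moved the median of all tested genes from 0.05 to -0.32. All 31 fold changes were then below 0, 29 of them were called (93.5%), all lower, and so were 60.7% of all tested genes. Rpe and Glrx were not called under that scaling.

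**Figure D2:**
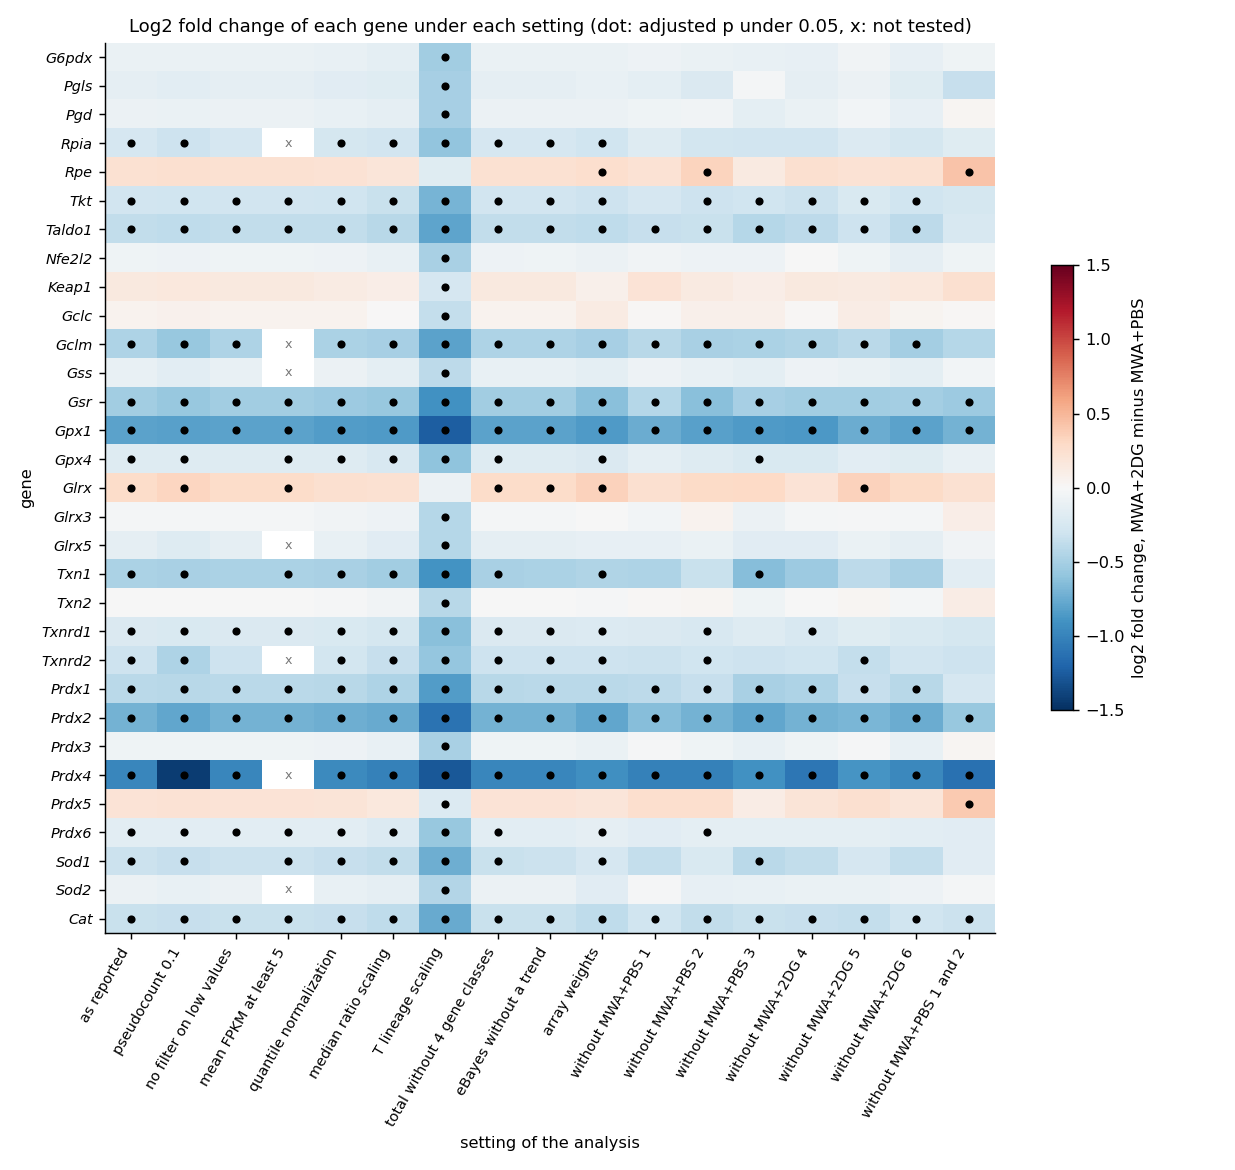
Log2 fold change (colour, blue lower and red higher in MWA+2DG) of each of the 31 tested genes (y axis) under each setting of the analysis (x axis), with a dot where the adjusted p was under 0.05 and an x where the gene was not tested. Gsr, Gpx1, Prdx2 and Cat carry a dot in every column, Prdx4 in every column where it was tested, and the column for T lineage scaling has 29 dots, all lower.

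In the oxidative arm of the pentose phosphate pathway, no gene was called. The entry enzyme glucose-6-phosphate dehydrogenase, G6pdx, was at 29.4, 28.7 and 28 FPKM in the 3 MWA+PBS samples and at 27.5, 24.96 and 27.8 in the 3 MWA+2DG samples. The groups did not overlap but lay close together, and the log2 fold change was -0.10 ± 0.06 (SE, limma adjusted p = 0.225). The lactonase Pgls (mean 5.33 FPKM over the 6 samples) changed by -0.13 ± 0.11 on the log2 scale (limma adjusted p = 0.367), and the second NADPH-making enzyme Pgd (17.6 FPKM) by -0.09 ± 0.07 (limma adjusted p = 0.365). In both of these the groups overlapped. Exons of Pgls share bases with Fam129c on the same strand, so fragments there could be counted to either gene.

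In the non-oxidative arm, 3 of 4 genes were called lower in MWA+2DG (75%), where 17.1% of all tested genes were. Transaldolase, Taldo1, which moves a carbon unit between sugar phosphates, stood at 46.5, 47.1 and 40.8 FPKM in MWA+PBS and at 35.7, 32.0 and 35.7 in MWA+2DG. Its groups did not overlap, and it fell by 0.37 ± 0.07 on the log2 scale (limma adjusted p = 0.00697), a call lost without both kidney-transcript samples (-0.24, limma adjusted p = 0.0988). The transketolase Tkt had 28.5, 26.1 and 26.7 FPKM in MWA+PBS and 23.5, 20.3 and 22.4 in MWA+2DG, a change of -0.28 ± 0.07 (limma adjusted p = 0.014). Every MWA+2DG sample was below every MWA+PBS sample, and the call was lost without MWA+PBS replicate 1 (limma adjusted p = 0.0563) and without both kidney-transcript samples (0.0964). The ribose-5-phosphate isomerase Rpia, at 4.39, 3.80 and 3.73 FPKM against 3.37, 2.90 and 3.27, just passed the threshold, with a change of -0.25 ± 0.08 (limma adjusted p = 0.0499). Its groups did not overlap, yet leaving out any 1 of the 6 samples ended the call (adjusted p from 0.0597 to 0.164), as did leaving out both kidney-transcript samples (-0.18, 0.291). The epimerase Rpe went the other way without being called, from 11.6 ± 1.77 FPKM (SD, n = 3) in MWA+PBS to 13.7 ± 0.345 in MWA+2DG (0.23 ± 0.10 on the log2 scale, limma adjusted p = 0.107), and its groups overlapped. Without MWA+PBS replicate 2 the rise in Rpe was called (0.33), and under T lineage scaling its change was -0.18. Exons of Rpe and of Kansl1l on the other strand share 558 bases.

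NRF2 and its repressor were not called. Nfe2l2 was at 19.3, 18.8 and 18.9 FPKM in MWA+PBS and at 16.5, 17.8 and 20 in MWA+2DG. One MWA+2DG sample was above all 3 MWA+PBS samples and the others below them, and the change was -0.07 ± 0.07 (limma adjusted p = 0.493). Keap1 had 12.1, 10.7 and 10.2 FPKM in MWA+PBS and 12.2, 12.4 and 12.1 in MWA+2DG, with the highest MWA+PBS sample just below the lowest MWA+2DG sample. Its change of 0.15 ± 0.07 was not called (limma adjusted p = 0.133) and was -0.26 under T lineage scaling. The quinone reductase Nqo1, a textbook NRF2 target, was barely detected, at 0.60, 0.78 and 0.34 FPKM in MWA+PBS and 0.33, 0.32 and 0.34 in MWA+2DG. MWA+PBS replicate 3 lay at the level of the MWA+2DG samples, while the 2 MWA+PBS samples above it were those with kidney transcripts. Without a filter on low values, the adjusted p of Nqo1 was 0.224.

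Among the genes of glutathione synthesis and reduction, the modifier subunit of glutamate-cysteine ligase and glutathione reductase were lower, while the catalytic subunit and glutathione synthetase were not called. Gclm, the modifier subunit of the rate-limiting enzyme, had 5.02, 4.51 and 4.55 FPKM in MWA+PBS and 3.11, 2.86 and 3.47 in MWA+2DG. All MWA+2DG values were below all MWA+PBS values, and the gene fell by 0.46 ± 0.08 on the log2 scale (limma adjusted p = 0.00378). Without both kidney-transcript samples the change was -0.42 (limma adjusted p = 0.0546). Glutathione reductase, Gsr, which spends NADPH to regenerate glutathione, was at 12.5, 9.37 and 11.2 FPKM in MWA+PBS and at 7.46, 7.35 and 7.28 in MWA+2DG. The MWA+2DG samples lay within 0.2 FPKM of each other and below all MWA+PBS samples, and the change was -0.52 ± 0.10 (limma adjusted p = 0.00477). The catalytic subunit Gclc (mean 14.9 FPKM) changed by 0.06 ± 0.07 (limma adjusted p = 0.556), or by -0.35 under T lineage scaling, and the synthetase Gss (1.88 FPKM) by -0.11 ± 0.09 (limma adjusted p = 0.344).

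Both glutathione peroxidases were called lower in MWA+2DG, where 17.1% of all tested genes were. Gpx1 (ENSMUSG00000063856), the main cytosolic peroxidase of this family, was the most abundant of the 33 genes, with 128.4, 115.4 and 110.6 FPKM in MWA+PBS and 72.9, 62.1 and 67.2 in MWA+2DG. The groups were far apart, at 118 ± 9.21 and 67.4 ± 5.41 FPKM (SD, n = 3), a change of -0.80 ± 0.08 (limma adjusted p = 0.000242). It was called under every setting tried, with -0.71 without the kidney-transcript samples and -1.23 under T lineage scaling. Gpx4, which reduces lipid peroxides in membranes, had 21.0, 19.8 and 18.8 FPKM in MWA+PBS and 18.2, 16.6 and 17.1 in MWA+2DG. The ranges nearly met, and the change of -0.19 ± 0.06 (limma adjusted p = 0.0481) was called in only 1 of the 6 fits that left a sample out, the fit without MWA+PBS replicate 3 (adjusted p over the 6 from 0.0446 to 0.163). Without both kidney-transcript samples it was -0.11 (limma adjusted p = 0.335). The pseudogene Gpx4-ps2, at least 95% identical to Gpx4 over 733 bases, averaged 7.54 FPKM, so fragments of the pair could have been split between them.

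Of the glutaredoxins, which use glutathione to reduce protein disulfides, the cytosolic Glrx was the only gene of the list called higher. It was at 4.39, 4.82 and 4.87 FPKM in MWA+PBS and at 6.64, 5.26 and 5.83 in MWA+2DG, and the groups did not overlap. The change of 0.28 ± 0.09 (limma adjusted p = 0.0405) remained called only without MWA+2DG replicate 5 among the 6 fits that left a sample out (adjusted p from 0.0249 to 0.127), and it was 0.23 without both kidney-transcript samples (0.239) and -0.09 under T lineage scaling. The iron-sulfur glutaredoxins Glrx3 (mean 10.2 FPKM) and the mitochondrial Glrx5 (2.08 FPKM) changed by -0.03 ± 0.08 (limma adjusted p = 0.809) and by -0.13 ± 0.08 (0.25), with overlapping groups.

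In the thioredoxin system, the cytosolic thioredoxin Txn1 and both reductases were lower, and the mitochondrial thioredoxin Txn2 was not called. Txn1 had 39.7, 47.1 and 30.8 FPKM in MWA+PBS and 30.5, 24.4 and 27.9 in MWA+2DG, and MWA+PBS replicate 3 nearly met the highest MWA+2DG sample. The change was -0.48 ± 0.15 (limma adjusted p = 0.0387). The high Txn1 samples were the 2 with kidney transcripts, and without them the change was -0.16 (limma adjusted p = 0.383). Leaving out 1 sample kept the call only for MWA+PBS replicate 3 (adjusted p from 0.00599 to 0.114). Mean FPKM of Txn2 was 12.7 ± 0.959 and 12.6 ± 0.570 (SD, n = 3), a change of -0.01 ± 0.07 (limma adjusted p = 0.949).

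The cytosolic reductase Txnrd1, which passes electrons from NADPH to thioredoxin, was at 14.9, 14.4 and 15.4 FPKM in MWA+PBS and at 13.2, 11.9 and 12.9 in MWA+2DG, a change of -0.22 ± 0.06 (limma adjusted p = 0.0224). Its mitochondrial counterpart Txnrd2 had 1.97, 2.04 and 2.01 FPKM in MWA+PBS and 1.37, 1.57 and 1.34 in MWA+2DG, a change of -0.31 ± 0.08 (limma adjusted p = 0.0226). Neither gene's groups overlapped, and each call was kept in 2 of the 6 fits that left a sample out. Those fits left out MWA+PBS replicate 2 or MWA+2DG replicate 4 for Txnrd1 (adjusted p over the 6 from 0.0228 to 0.0692) and MWA+PBS replicate 2 or MWA+2DG replicate 5 for Txnrd2 (from 0.0298 to 0.0765). Without both kidney-transcript samples neither was called (-0.26, limma adjusted p = 0.0734 for Txnrd1, and -0.31, limma adjusted p = 0.14 for Txnrd2). Sulfiredoxin, Srxn1, which repairs overoxidised peroxiredoxins, was under the filter, at 0.973 ± 0.178 and 0.487 ± 0.0321 FPKM (SD, n = 3). Its groups did not overlap, and without a filter its change was -0.40 (limma adjusted p = 0.0344).

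Of the 6 peroxiredoxins, thiol enzymes that reduce hydrogen peroxide, 4 were called lower in MWA+2DG (66.7%, against 17.1% of all tested genes). Prdx4 (ENSMUSG00000025289), the member of the endoplasmic reticulum, changed most of all 31 tested genes. It had 3.10, 3.08 and 3.72 FPKM in MWA+PBS and 1.53, 0.91 and 1.13 in MWA+2DG, so the means were 3.30 ± 0.364 and 1.19 ± 0.314 (SD, n = 3). No MWA+2DG sample came near the MWA+PBS range, and the change was -0.98 ± 0.12 (limma adjusted p = 0.000751), or -1.12 without the kidney-transcript samples (0.0116). The 8 plasma cell markers, from cells rich in endoplasmic reticulum, summed to 81.9 to 90.3 FPKM and 43.7 to 46.6. Jchain alone was the largest part of both sums, with group means of 62.2 and 24.7 FPKM. The markers did not move together. Of the 5 tested, 2 were called lower, Jchain (-1.30) and Xbp1 (-0.53), and 1 higher, Irf4 (0.40), while Mzb1 and Prdm1 were not called. The part of plasma cells in the Prdx4 value was not tested.

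Prdx2 (ENSMUSG00000005161), a cytosolic peroxiredoxin that is also abundant in red cells, was at 14.3, 12.9 and 11.7 FPKM in MWA+PBS and at 7.48, 7.17 and 7.88 in MWA+2DG. The groups were well separated and the change was -0.71 ± 0.08 (limma adjusted p = 0.000441), or -0.57 without the kidney-transcript samples (0.00905). The erythroid marker sum moved in the same direction, with all 10 tested erythroid markers called lower, and its part in the Prdx2 value was not tested. Exons of Prdx2 share 173 bases with Junb on the other strand, which averaged 89.7 FPKM.

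Prdx1, the other main cytosolic member, had 40.1, 42.3 and 34.7 FPKM in MWA+PBS and 31.5, 26.7 and 29.2 in MWA+2DG. Its groups did not overlap and it changed by -0.41 ± 0.09 (limma adjusted p = 0.00973), a call lost without both kidney-transcript samples (-0.25, limma adjusted p = 0.129). Prdx6, which also reduces phospholipid peroxides, was at 22.4, 23.1 and 23.2 FPKM in MWA+PBS and at 20.4, 20.4 and 20.6 in MWA+2DG. Its 2 groups were each tight, so that a change of only -0.15 ± 0.05 was called (limma adjusted p = 0.036), though in only 1 of the 6 fits that left a sample out, the fit without MWA+PBS replicate 2 (adjusted p from 0.0450 to 0.106), and not without both kidney-transcript samples (-0.17, 0.109). The mitochondrial Prdx3 (mean 29.4 FPKM) changed by -0.06 ± 0.07 (limma adjusted p = 0.510). Prdx5, found in mitochondria, peroxisomes and cytosol, went from 13.8 ± 1.58 to 15.99 ± 0.648 FPKM (SD, n = 3), a change of 0.21 ± 0.09 that was not called (limma adjusted p = 0.0953), was called without the kidney-transcript samples (0.39, limma adjusted p = 0.0203) and was -0.20 under T lineage scaling. Exons of Prdx5 share 409 bases with Trmt112 on the other strand.

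Catalase, the peroxisomal enzyme that splits hydrogen peroxide, was lower under every setting tried. Cat had 45.1, 40.9 and 42.5 FPKM in MWA+PBS and 34.2, 34.8 and 32.3 in MWA+2DG, with no overlap, and fell by 0.33 ± 0.06 on the log2 scale (limma adjusted p = 0.00341). The cytosolic superoxide dismutase Sod1 was at 14.8, 17.9 and 13.8 FPKM in MWA+PBS and at 12.9, 10.8 and 12.7 in MWA+2DG, a change of -0.33 ± 0.11 (limma adjusted p = 0.045). The Sod1 groups came within 1 FPKM of each other, and the call was kept only without MWA+PBS replicate 3 (adjusted p over the 6 fits from 0.0307 to 0.127). Without both kidney-transcript samples the Sod1 change was -0.17 (limma adjusted p = 0.307). The mitochondrial Sod2 (mean 4.20 FPKM) changed by -0.09 ± 0.08 (limma adjusted p = 0.403). Pseudogenes of Sod1 (Gm8566, mean 2.74 FPKM) and Prdx1 (Gm21399, mean 2.86 FPKM) were at least 95% identical to parts of them, so their fragments could also have been split.

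**Figure D3:**
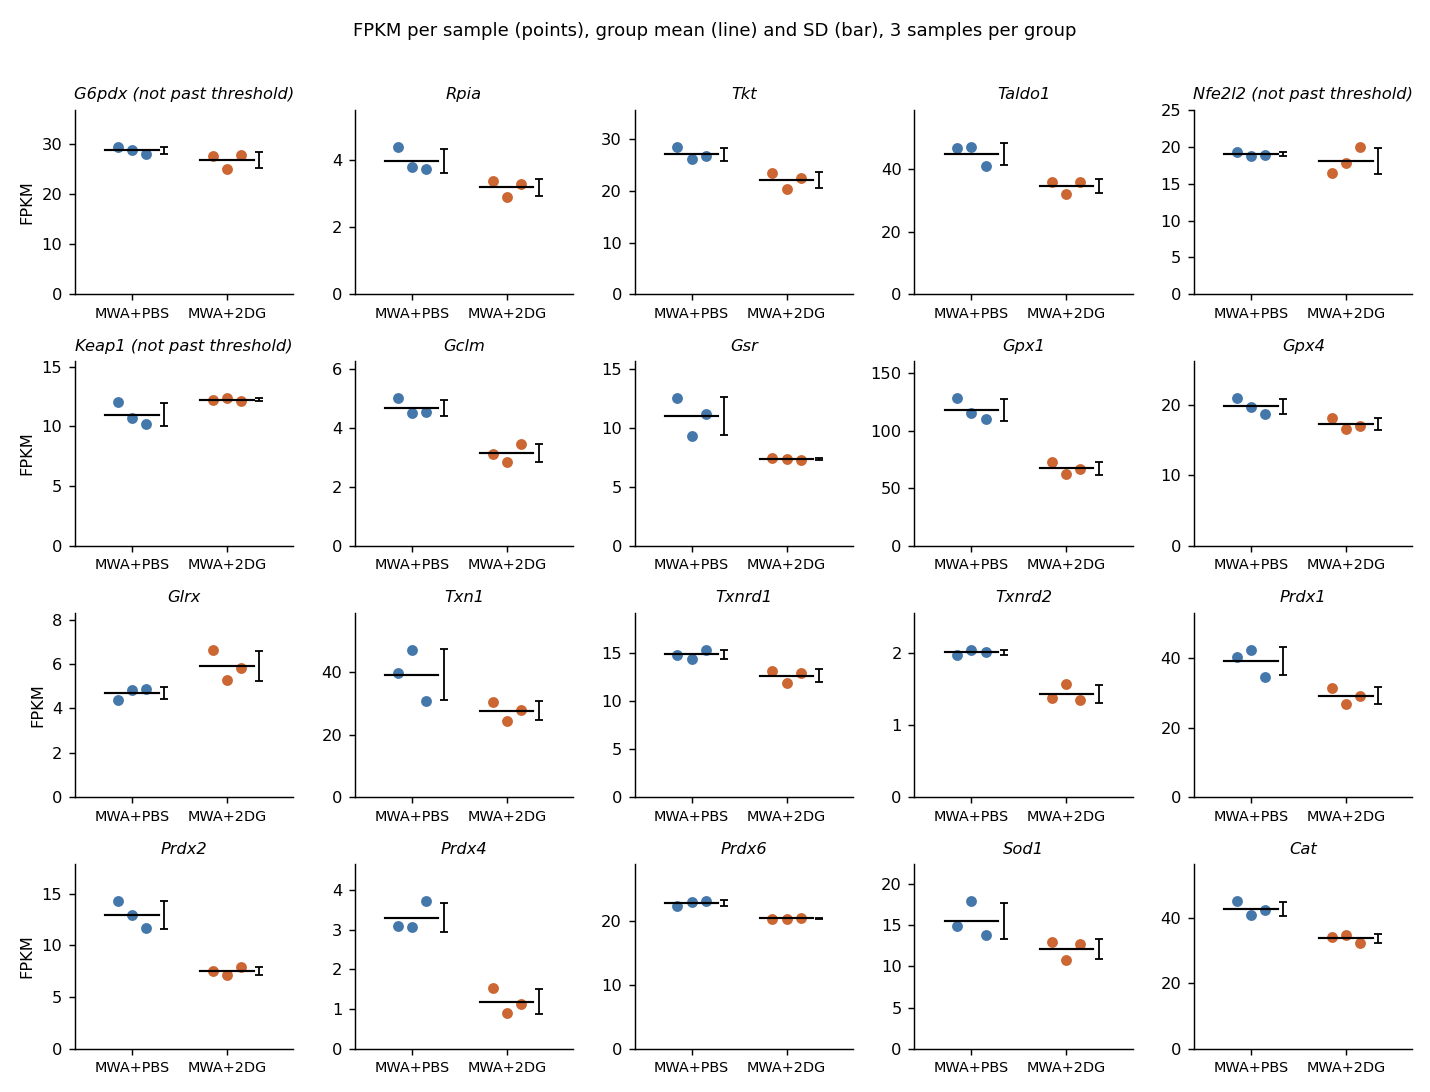
FPKM (y axis, from 0) of the 17 called genes and of G6pdx, Nfe2l2 and Keap1 in each sample (points), with the group mean (line) and SD (bar), 3 samples per group. The groups stand clearly apart in Gpx1, Prdx2 and Prdx4 and nearly meet in Txn1 and Gpx4, and Glrx is the only called gene that is higher in MWA+2DG.

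Ratios of related genes within a sample do not depend on how the sample is scaled. For 10 pairs the log2 ratio was compared with a two-sided exact permutation test, which with 3 samples against 3 cannot go below p = 0.1, so no pair could pass 0.05. In 7 of the 10 pairs the groups did not overlap (exact p = 0.1 each, 0.143 after Benjamini-Hochberg adjustment over the 10). No share over all gene pairs was computed, and 52.1% of all tested genes were themselves apart, so the 7 pairs are a description. Gpx1 was 6.12, 5.84 and 5.89 times the level of Gpx4 in MWA+PBS and 4, 3.75 and 3.94 times in MWA+2DG. Prdx2 was 0.447, 0.426 and 0.414 times the mitochondrial Prdx3 in MWA+PBS and 0.261, 0.268 and 0.255 times in MWA+2DG. The ratio of the catalytic to the modifier subunit, Gclc to Gclm, rose in every MWA+2DG sample above every MWA+PBS sample, from 2.74, 3.35 and 3.29 to 5.19, 4.91 and 4.49. These 3 pairs had the largest shifts of the 10, with log2 differences of -0.61, -0.71 and 0.64.

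Further pairs set a cytosolic against a mitochondrial or multi-compartment enzyme. The ratio of Txn1 to Txn2 was 3.01, 3.55 and 2.65 in MWA+PBS and 2.40, 2.03 and 2.12 in MWA+2DG (log2 difference -0.49). Prdx1 to Prdx3 changed by -0.36 and Prdx6 to Prdx5 by -0.38, both without overlap. Only in the pair G6pdx to Tkt, which sets the oxidative against the non-oxidative arm, was the shift under 0.2, from 1.03, 1.10 and 1.05 to 1.17, 1.23 and 1.24. In the pairs Txnrd1 to Txnrd2 (0.26, exact p = 0.2), Sod1 to Sod2 (-0.24, exact p = 0.4) and Nfe2l2 to Keap1 (-0.23, exact p = 0.2) the groups overlapped.

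**Figure D4:**
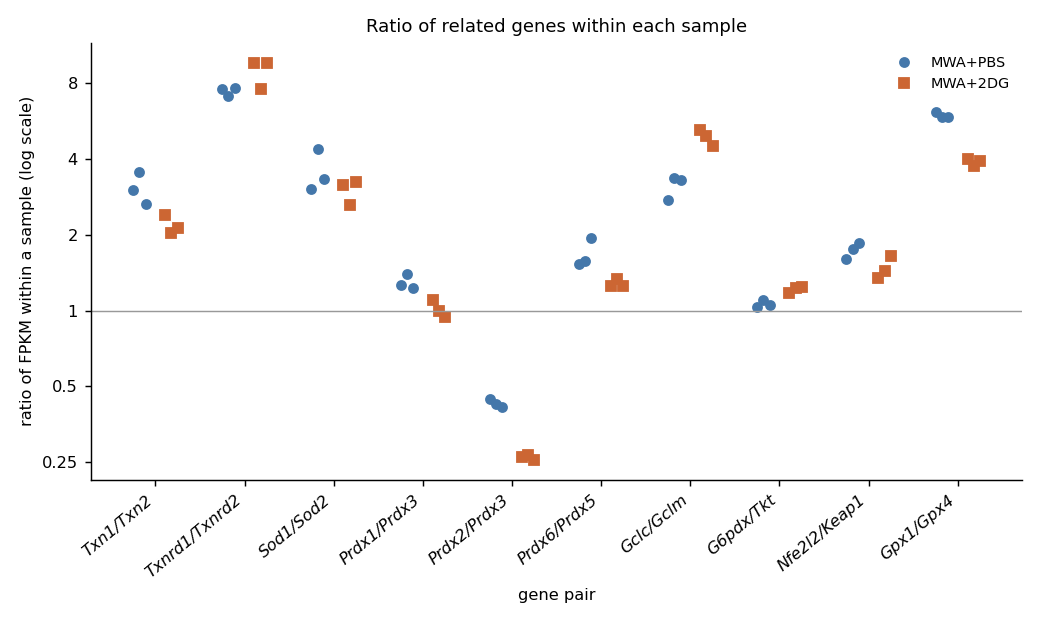
Ratio of FPKM within each sample (y axis, log scale) for 10 gene pairs (x axis), circles for the 3 MWA+PBS and squares for the 3 MWA+2DG samples. The groups are apart in 7 pairs, with Gclc to Gclm and G6pdx to Tkt higher and the other 5 lower in MWA+2DG.

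Summed by role, leaving aside Nqo1, the glutathione peroxidases had the lowest ratio of MWA+2DG to MWA+PBS, 0.614. Their sums were 129 to 149 FPKM with PBS and 78.6 to 91.1 with 2DG. The sums were 113 to 126 and 97.2 to 106 for the peroxiredoxins, 60.8 to 78.0 and 50.4 to 58.1 for the thioredoxin system, and 60.4 to 64.8 and 48.9 to 51.2 for the superoxide dismutases and catalase. None of these overlapped, nor did the non-oxidative arm (81.2 to 90.8 and 69.2 to 75.9) or the oxidative arm, whose ranges lay within 1 FPKM of each other (51.3 to 53.5 and 45.5 to 51.1). The glutaredoxins overlapped, at 16.2 to 18.7 and 17.1 to 18.8, and so did NRF2 with its repressor, at 29.0 to 31.4 and 28.7 to 32.1. The sums carry no test. Beside them, the macrophage sum in MWA+2DG was 0.153 times and the proliferation sum 0.669 times that in MWA+PBS, against 0.801 times for the 33 genes together.

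**Figure D5:**
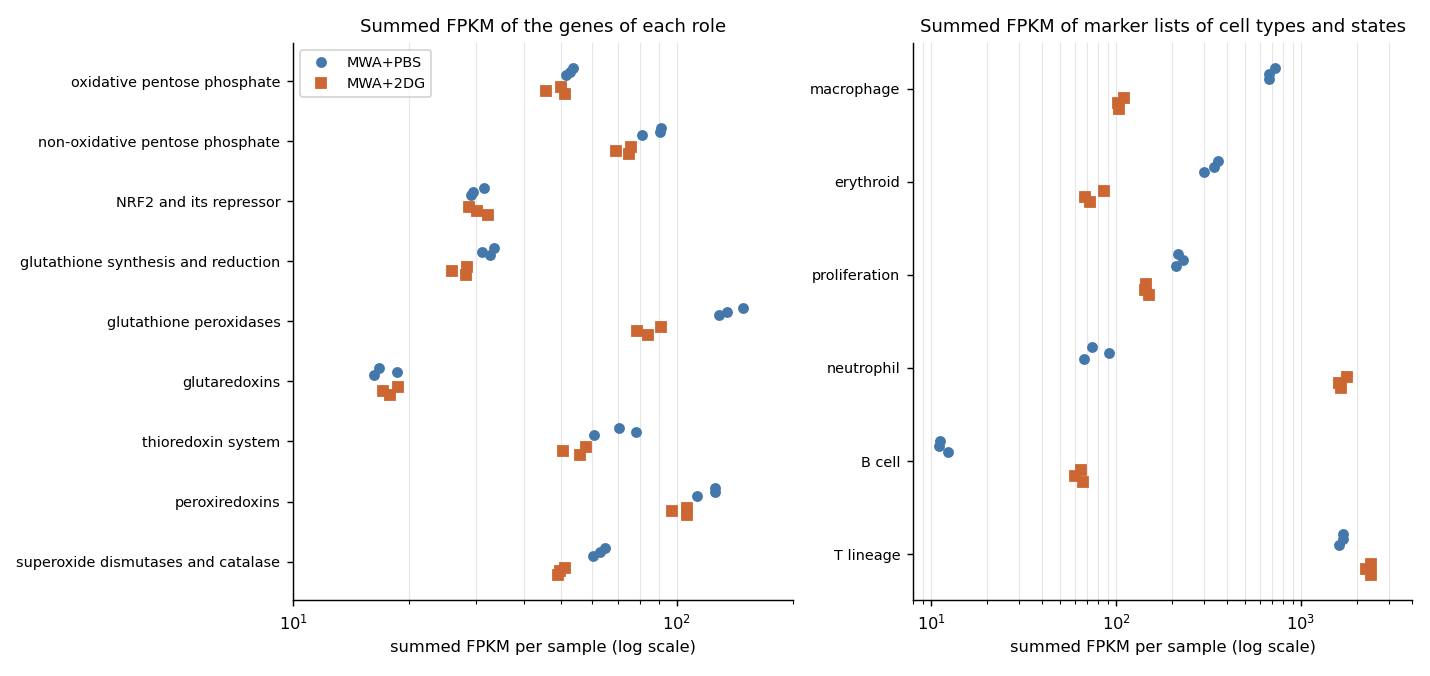
Summed FPKM per sample (x axis, log scale) of the genes of each role (left) and of marker lists of cell types and states (right), circles for MWA+PBS and squares for MWA+2DG. The macrophage, erythroid and proliferation sums are lower and the neutrophil, B cell and T lineage sums higher in MWA+2DG, and 7 of the 9 roles drawn are lower without overlap, with NRF2 and its repressor and the glutaredoxins overlapping.

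Other genes of the same pathways were taken from lists of 97 genes, of which 81 were tested. Of these, 26 were called lower (32.1%) and 11 higher (13.6%), against 17.1% and 22.3% of all tested genes, and their median change was -0.03. Among other NADPH and pentose phosphate genes, 6 of 17 were lower (35.3%) and 1 higher (5.88%). The cytosolic isocitrate dehydrogenase Idh1, an NADPH source outside the pentose phosphate pathway, went from 12.8 ± 0.130 to 3.72 ± 0.542 FPKM (SD, n = 3), a change of -1.56 (limma adjusted p = 1.59e-05). Its mitochondrial counterpart Idh2 changed by -0.60 (limma adjusted p = 0.000536), and the mitochondrial NAD kinase Nadk2 by -0.52 (limma adjusted p = 0.000953). Shpk, the sedoheptulose kinase, was the 1 called higher, by 0.33 (limma adjusted p = 0.0208), a call lost without MWA+PBS replicate 1 or MWA+2DG replicate 4 (adjusted p at most 0.0718) and without both kidney-transcript samples (0.153), and its change was 0.0048 under T lineage scaling.

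Among other NRF2 targets and partners, 8 of 18 were called lower (44.4%) and 2 higher (11.1%), against 17.1% and 22.3% of all tested genes. The heme oxygenase Hmox1 was at 229.2, 211.2 and 223.2 FPKM in MWA+PBS and at 27.5, 25.2 and 28.1 in MWA+2DG, a change of -2.99 (limma adjusted p = 1.87e-07). The ferritin light chain Ftl1 changed by -1.47 (limma adjusted p = 4.84e-06) and the biliverdin reductase Blvrb by -1.40 (limma adjusted p = 3.73e-05). Hmox1, Ftl1 and Blvrb handle heme and iron, as red pulp macrophages do, and all 12 tested macrophage markers were also called lower, with a median change of -2.59. The part of macrophage RNA in these values was not tested. The 2 called higher were the aldehyde dehydrogenase Aldh3a2 (0.30, limma adjusted p = 0.0102) and the epoxide hydrolase Ephx1 (0.19, limma adjusted p = 0.0329, lost without MWA+PBS replicate 1 or 3 or MWA+2DG replicate 4 or 6, at most 0.116, and without both kidney-transcript samples, 0.0885), and under T lineage scaling these were -0.09 and -0.24.

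Among other glutathione and glutaredoxin genes, 5 of 18 were called lower (27.8%) and 2 higher (11.1%), against 17.1% and 22.3% of all tested genes. The plasma glutathione peroxidase Gpx3 was at 27.8, 24.4 and 2.10 FPKM in MWA+PBS and at 1.12, 0.73 and 0.89 in MWA+2DG. Its high values were in the 2 samples with kidney transcripts, and its change was -2.78 with them (limma adjusted p = 0.024) and -0.70 without them (limma adjusted p = 0.0331). Leaving out 1 sample kept the call only for MWA+PBS replicate 3 (at most 0.0706). The glutathione transferases Gstm1 and Gsto1 changed by -2.16 (limma adjusted p = 1.85e-06) and -0.91 (0.000162), with -2.12 and -0.87 without those samples. The microsomal transferase Mgst2 was higher by 0.79 (limma adjusted p = 0.000197) and Gstt2 by 0.55 (limma adjusted p = 0.00301), and both stayed above 0 under T lineage scaling (0.40 and 0.23).

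Among other thioredoxin and peroxide genes, 5 of 21 were called lower (23.8%, near the 17.1% of all tested genes) and 2 higher (9.52%, against 22.3%). The selenium carrier Selenop changed by -1.45 (limma adjusted p = 1.65e-06) and the sestrin Sesn2 by -0.70 (limma adjusted p = 0.00496). Selenok, a selenoprotein of the endoplasmic reticulum, changed by -0.38 (limma adjusted p = 0.0251), a call lost without any 1 of MWA+PBS replicates 1 and 2 and MWA+2DG replicates 5 and 6 (at most 0.0651) and without both kidney-transcript samples (0.236). The thioredoxin-binding protein Txnip was at 203.3, 212.2 and 197.2 FPKM in MWA+PBS and at 265.0, 251.2 and 282.2 in MWA+2DG, a change of 0.38 (limma adjusted p = 0.00274) that became -0.06 under T lineage scaling. Nucleoredoxin, Nxn, was higher by 0.26 (limma adjusted p = 0.0369), a call lost when any 1 sample was left out (adjusted p from 0.0535 to 0.116) or both kidney-transcript samples were (0.17), with -0.07 under T lineage scaling.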

How the data were processed

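CD8+ T cell RNA from 6 mouse spleen samples (3 MWA+PBS, 3 MWA+2DG, grouped by their labels) was sequenced as poly(A) libraries with strand marks and molecular identifiers. The study's methods name fastp, HISAT2, StringTie and ballgown. The submitters' processing notes list cutadapt 1.9, HISAT2 2.0.4, UMI-tools and StringTie 1.3.4d and the build mm9. No source used here names the annotation or says whether strand was used in counting. The authors deposited 1 FPKM value per gene and sample, with at most 2 decimals. FPKM holds no counts, and a search for steps of 1 read in FPKM times transcript length gave a highest resonance of 0.0639 to 0.0797, against 0.0532 to 0.0883 in jittered values, so no reads were recovered.

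Symbols were found for 28689 of 28773 gene IDs. The test was limma 3.58.1 in R 4.3.3 (lmFit, eBayes with a trend), two-sided, without covariates, on log2(FPKM + 1). It covered the 12444 genes whose FPKM averaged 1 or more, with Benjamini-Hochberg adjustment over all of them. Changes of low genes come out too small on this scale. The script was tested on simulated data.

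A gene was given in every sample where it was called or was Nfe2l2, Keap1, G6pdx or Nqo1. The others were given with their mean over the 6 samples or with their group means. Of the other pathway genes, the 3 highest and 3 lowest called log2 fold changes of each list were named, with Hmox1, Txnip and Cybb. One gene that this rule names is not reported here. The members and lists were chosen with earlier results of these data known. BLAST 2.17.0 was used to look for other GENCODE M21 transcripts that matched a member at 95% identity or more over at least 200 bases. Alternatives were a pseudocount of 0.1, no filter, an FPKM minimum of 5, T lineage scaling, median ratio scaling, quantile normalization, totals without 4 gene classes, no trend, array weights and leaving out each sample. Leaving out both kidney-transcript samples was chosen after seeing the data.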

Additional observations from a re-analysis of the deposited data

How the results depend on the processing

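Across the alternatives, the called genes among the 31 numbered 29 under T lineage scaling (29 lower, 0 higher) and 7 without both kidney-transcript samples (5 lower, 2 higher, an alternative chosen after seeing the data), against 17 (16 lower, 1 higher) as reported. Leaving out 1 sample gave 8 to 13 called (25.8% to 41.9%, where 29.8% to 41.7% of all tested genes were), 8 to 12 lower and 0 to 1 higher. The count called higher was 0 with no filter on low values, with quantile normalization and with median ratio scaling, and 2 with array weights. Of the other pathway genes, T lineage scaling called 61 (59 lower, 2 higher), array weights called 18 higher, and leaving out 1 sample gave 6 to 14 higher. Over the whole table, 2951 genes were called at a mean FPKM of at least 5, which tested fewer genes, and 8176 under T lineage scaling, against 4907. The sign reversed without both kidney-transcript samples in Pgd (0.028), Glrx3 (0.10), Txn2 (0.11) and Prdx3 (0.027). It reversed under T lineage scaling in Rpe (-0.18), Keap1 (-0.26), Gclc (-0.35), Glrx (-0.092) and Prdx5 (-0.20), each with a change smaller than the 0.44 by which that scaling lowers a log2 value. Leaving out 1 sample moved Glrx3 between -0.093 and 0.049 and Txn2 between -0.066 and 0.026. Why the counts moved was not tested. No paired analysis was possible because the replicate numbers, 1 to 3 and 4 to 6, are not shared between the groups. The read depth is unknown, so no counting error could be given for the lowest genes, Nqo1, Srxn1 and Txnrd2.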

Other observations

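The NADPH oxidase of phagocytes spends NADPH to make superoxide, and its genes were counted apart from the antioxidant genes. Of 7 tested, 4 were higher in MWA+2DG (57.1%) and 2 lower (28.6%), against 22.3% and 17.1% of all tested genes. The organizer subunit Ncf1 was at 16.01, 13.5 and 15.6 FPKM in MWA+PBS and at 23.2, 20.6 and 23.4 in MWA+2DG, a change of 0.55 (limma adjusted p = 0.00157). The GTPase Rac2 changed by 0.28 (limma adjusted p = 0.0101) and the subunit Ncf4 by 0.22 (limma adjusted p = 0.0258). The catalytic subunit Cybb went from 14.4 ± 0.396 to 16.8 ± 0.977 FPKM (SD, n = 3), a change of 0.20 (limma adjusted p = 0.0324). The calls of Ncf4 and Cybb were each lost in 5 of the 6 fits that left a sample out, all but the fit without MWA+PBS replicate 2 for Ncf4 and without MWA+2DG replicate 6 for Cybb (adjusted p at most 0.0895 and 0.0942). Without both kidney-transcript samples Rac2 (0.27, limma adjusted p = 0.0681) and Cybb (0.17, limma adjusted p = 0.196) were not called. Under T lineage scaling Rac2, Ncf4 and Cybb were at -0.15, -0.21 and -0.21, while Ncf1 was at 0.13. None of the 4 was then called higher, and Ncf4 and Cybb were called lower (limma adjusted p = 0.0151 and 0.0434). The Cybb call was also lost with median ratio scaling (limma adjusted p = 0.106) and with quantile normalization (0.0603).

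The GTPase Rac1 went the other way, from 49.8 ± 0.741 to 40.9 ± 0.620 FPKM (SD, n = 3), a change of -0.28 (limma adjusted p = 0.00262). Neutrophils and macrophages both carry this oxidase. Of 12 tested neutrophil markers 11 were called higher, and all 12 tested macrophage markers were called lower, and the part of either in these values was not tested.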
